A study of Mus musculus with 8 samples.

Results

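Translation initiation and elongation factors were described as the genes whose platform symbol starts with Eif or Eef and a digit, with the Eif2ak kinases left out. They comprised 54 of the 18193 genes that had a probe set annotated to a single gene, and 142 probe sets in all. Where a gene had several probe sets, the one whose log2 signal averaged highest across all 8 arrays stood for it. By symbol the 54 genes fell into 5 of the Eif2 class, 5 subunits of Eif2b, 11 of Eif3, 10 of Eif4, 3 repressors that bind Eif4e, 9 other initiation factors (Eif1, Eif5 and Eif6) and 11 of the elongation class (Eef). Besides elongation factors, the elongation class holds the kinase gene Eef2k, methyltransferase genes such as Eef1akmt1, and Eef1e1. Another 4 symbols, among them Eef1g and Eif4ebp3, were carried only by probe sets shared between genes and were not analysed here, and neither were Eif2s1 and Eif4g1.

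Polyadenylated RNA was measured on 8 Affymetrix mouse arrays, from connexin 43 knockout (KO) and wild-type (WT) material at 3 stages. KO MII oocytes (1 array), KO blastocysts (2 arrays) and KO implantation sites (1 array) were measured, and each had a WT group with the same number of arrays. Connexin 43, encoded by Gja1, is a gap junction protein, and the title of the series places its depletion in the oocyte. The labels name neither the Cre driver nor the deleted exons, strain, age or pooling of animals, and nothing in them says that the blastocyst replicates came from separate animals or cultures, so the p-values speak for the spread of these arrays alone, which may be technical. The comparisons ask how KO and WT transcript levels differ at each stage.

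Initiation factors bring the small ribosomal subunit, the initiator tRNA and the mRNA together: eIF2 delivers the initiator tRNA, eIF2B reloads eIF2 with GTP, eIF3 bridges the subunit and the mRNA, and the eIF4 proteins bind the mRNA cap and unwind the leader. eIF5, eIF5B and eIF1A complete start codon recognition and subunit joining, after which the eEF1 complex delivers aminoacyl-tRNAs and eEF2 moves the ribosome along. Fully grown oocytes store much of their maternal mRNA in a repressed state, and the embryo replaces it with transcripts of its own before the blastocyst forms.

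The stage labels were checked against marker genes. The 10 oocyte markers summed to 84646 on the KO and 112442 on the WT oocyte array, and to 3819 or less on every other array. The 7 trophectoderm markers summed to 52442 to 65627 on the blastocyst arrays. The arrays labelled implantation site, whose source is given as embryo, were bright in the uterine genes Pgr and Hand2: the 10 uterus and decidua markers summed to 73105 on the KO and 62066 on the WT array, whereas Cdx2 read 111 and 31.1 and Nanog 4.94 and 10.6 there. Pgr, Hand2 and Bmp2 made the largest parts of the uterine sums. Des (26.6 in KO and 356 in WT) and Prl8a2 (217 and 211) were not above the WT oocyte array, which read 401 and 588. Of the blastocyst markers, Tfap2c still read 3893 in KO and 1752 in WT, and Klf4 2502 and 6151. Values at that stage are therefore those of a tissue in which uterine markers dominated. The representing probe set of Gja1 read 375 and 553 on the KO blastocyst arrays, against 9835 on the first array labelled WT and 574 on the array labelled WT replicate 2, so the array labelled WT replicate 2 lay at the KO level for the targeted gene. Its signal at implantation sites was 28105 in KO and 44493 in WT, and in oocytes, 150 in KO and 126 in WT, it was at or below the brightest Bacillus control probe set. Since the deleted region is not stated in the labels, this probe set checks them only in part. Bacillus control probe sets, taken as the level of background, reached 334 on the KO and 132 on the WT oocyte array, 395 and 560 on the KO and 199 and 219 on the WT blastocyst arrays, and 131 on the KO and 100.2 on the WT implantation site array.

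Of the 54 factor genes, 50 passed the filter on low signal (a mean of at least 151), and Eef1a2, Eef2kmt, Eif2s3y and Eif4a3 did not. The median signal of the 50 was 613 on the KO and 949.8 on the WT oocyte array, 2371 and 3179 on the KO and 3804 and 3129 on the WT blastocyst arrays, and 2961 on the KO and 2445 on the WT implantation site array. The median of the 50 stood at the 56.8th percentile of all tested genes on the KO oocyte array and the 70.8th on the WT oocyte array, and between the 83.9th and 89.6th on the other 6 arrays. Translation factor mRNAs thus ranked lower among the transcripts of oocytes than among those of blastocysts and implantation sites, and the spans of the arrays did not overlap. In bulk samples, fewer cells of a type and less RNA per cell cannot be told apart.

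**Figure D1:**
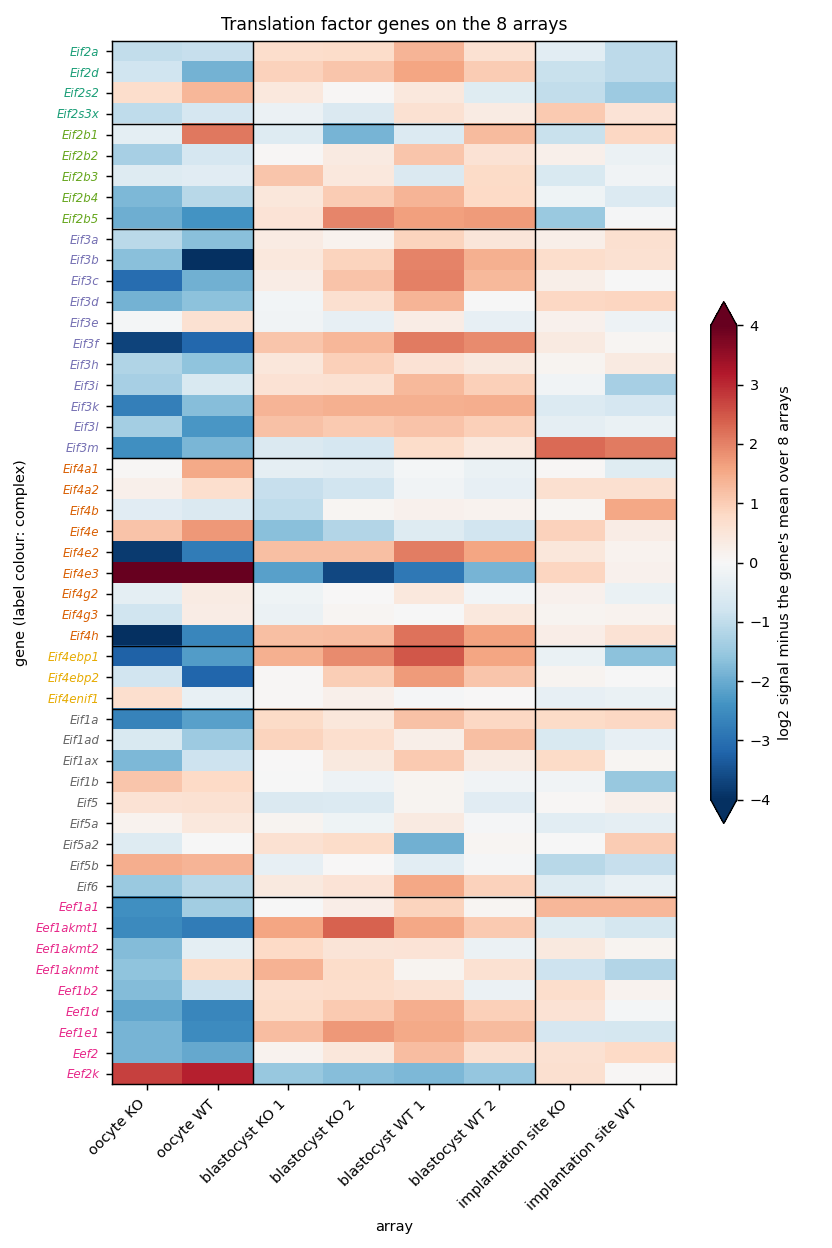
Log2 signal of the 50 translation factor genes that passed the filter (rows, grouped by complex, label colour by complex) minus each gene's own mean over the 8 arrays (columns; KO left of WT within a stage). Red is above and blue below the gene's mean, and the scale ends at 4 and -4; most rows are blue in the oocyte columns, whereas Eif4e3 and Eef2k are red there.

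Against oocytes, blastocysts had higher signal of most translation factors. With limma (stage and genotype as terms over the 8 arrays, Benjamini-Hochberg adjusted p under 0.05), 29 of the 50 genes were higher in blastocysts, where 26.9% of all 11745 tested genes were, and 7 were lower, where 18.6% of all tested genes were. Their median difference was 1.78 on the log2 scale, beside 0.43 for all tested genes. A filter on mean signal favours genes that are high in at least some samples, so these counts describe the genes that passed. Genes other than the factors with a mean signal at least that of the median factor (2273) had a median of 0.08 over 1491 genes, and the 25 factors at or above that signal had a median of 1.73.

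The complexes differed in this respect. Of the 11 Eif3 subunits 10 were higher in blastocysts and 0 lower (median log2 difference 2.24). The elongation class had 6 higher and 1 lower of 9 (2.22), Eif2b 3 higher and 0 lower of 5 (1.52), the Eif2 class 2 and 0 of 4 (1.34), and the repressors 2 and 0 of 3 (2.93). The Eif4 class was split, with 2 higher and 4 lower of 9 (median 0.08), and so were the other initiation factors, with 4 higher and 2 lower of 9 (0.13).

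**Figure D2:**
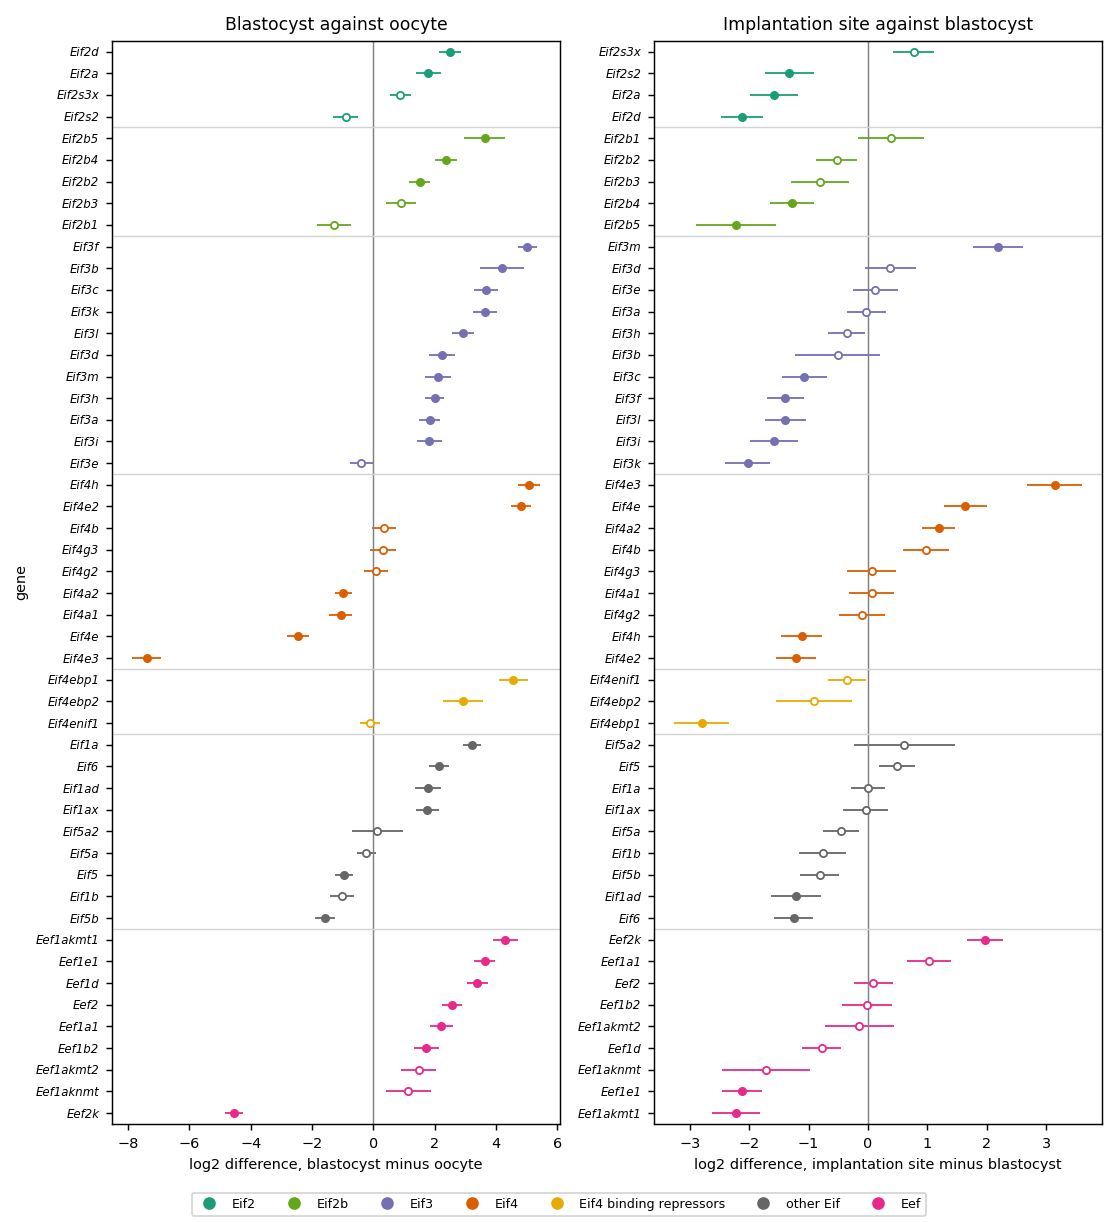
Log2 difference (x axis) with its standard error for each translation factor gene (y axis), blastocyst minus oocyte on the left and implantation site minus blastocyst on the right, from limma over 8 arrays; filled points passed an adjusted p of 0.05. Eif3 points lie to the right of 0 in the left panel except Eif3e, while Eif4 runs from -7.40 for Eif4e3 to 5.09 for Eif4h.

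Promoter sequences are shown for genes of several complexes that were higher in blastocysts. Eif2s3x, shown further on for its pyrimidine start, did not pass there (log2 0.88, limma adjusted p = 0.055). RefSeq promoter windows of GRCm38.p6, from 250 bases before to 50 bases after the start, were found for 43 of the 54 genes (57 promoters). The letters CCGGAAG, the core recognised by ETS family transcription factors, were searched on both strands. They occurred in 13 of 24 promoters of factors higher in blastocysts (54.2%) and in 0 of 9 promoters of factors lower there, beside 20.9% of the promoters of other tested genes that were higher, 15.9% of those that were lower, and 8.86% of all 32851 promoters of the table. Over all factors the letters were in 18 of 57 promoters (31.6%), beside 16.1% of the promoters of all tested genes. The 9 promoters of lower factors are too few to set their 0 apart from these shares. Promoters of the same gene can overlap: by gene the counts were 11 of 22 and 0 of 6, and 3 of the 13 promoters were Eif4e2 starts sharing 1 copy of the letters. The match lay close to the start in the windows below, which run from 40 bases before to 20 bases after the start on the gene's strand, with the letters or their reverse complement CTTCCGG in capitals.
Eef1b2: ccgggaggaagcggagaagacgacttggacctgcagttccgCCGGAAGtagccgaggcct
Eif2b4: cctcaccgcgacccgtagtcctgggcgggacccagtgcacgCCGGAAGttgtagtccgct
Eif3c: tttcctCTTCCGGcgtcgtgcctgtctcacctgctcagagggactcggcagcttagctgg
Eif3l: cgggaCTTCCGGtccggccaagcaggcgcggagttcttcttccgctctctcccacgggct
Eif4e2: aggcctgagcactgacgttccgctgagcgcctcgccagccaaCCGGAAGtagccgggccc
The windows are chr1:63176791-63176850 (plus strand) for Eef1b2, chr5:31193120-31193179 (minus strand) for Eif2b4, chr7:126566347-126566406 (minus strand) for Eif3c, chr15:79075183-79075242 (plus strand) for Eif3l and, for Eif4e2, chr1:87213874-87213933 (plus strand), which is 1 of 3 starts listed with the letters. In Eef1b2 and Eif2b4 the letters begin just after the start, in Eif4e2 also, and in Eif3c and Eif3l before it on the other strand. Eif4enif1 and Eif5a2, which did not pass between blastocysts and oocytes, also had the letters in such a window.

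A second motif, the E-box CACGTG, which reads the same on both strands, was present in 14 of the 57 factor promoters (24.6%), beside 7.15% of all promoters of the table and 9.51% of the promoters of all tested genes. It was found in 3 of the 9 promoters of factors lower in blastocysts, those of Eef2k, Eif4a1 and Eif4e, and in 5 of the 24 of factors higher there. The homeobox core TAATTG was in 3 of the 57 (5.26%), beside 8.0% of all promoters and 5.06% of those of all tested genes. A start on C followed by at least 4 further pyrimidines, the hallmark of mRNAs whose translation follows mTOR signalling, was in 2 of 57 (3.51%), beside 2.51% of all and 2.43% of those of all tested genes, and both are shown with the pyrimidine run in capitals.
Eif2s3x: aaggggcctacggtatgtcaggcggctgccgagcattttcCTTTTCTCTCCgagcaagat
Eif3f: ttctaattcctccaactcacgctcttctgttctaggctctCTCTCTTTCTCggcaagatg
These windows are chrX:94212632-94212691 (minus strand) for Eif2s3x and chr7:108934375-108934434 (plus strand) for Eif3f. A match describes the letters of a window and says nothing of whether a factor binds there. The pyrimidine run was read only from the annotated first base, so a start annotated a few bases away may be missed. Its share is therefore no measure of how many factor mRNAs carry such a start.

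The cap-binding proteins gave the widest spread of any class. Eif4e3, a cap-binding protein of the same family as Eif4e, read 52301 in KO and 69279 in WT oocytes. In blastocysts it read 489.7 and 179 in KO and 303 and 605 in WT, and at the later stage 3984 in KO and 2488 in WT. Its signal was thus highest in oocytes, lowest in blastocysts, where 1 KO array was below its brightest control, and intermediate at implantation sites, with no overlap between stages. The difference was log2 -7.40, SE 0.46, adjusted p = 7.82e-07 for blastocyst minus oocyte and log2 3.14, SE 0.46, adjusted p = 0.000484 for implantation site minus blastocyst.

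Eif4e, the general cap-binding subunit, had the same order of stages. It read 18654 in KO and 27810.2 in WT oocytes. Blastocysts gave 2629 and 3758 in KO and 5908 and 4939 in WT, and implantation sites gave 15926 in KO and 10377 in WT. Blastocysts were below both other stages on every array (log2 -2.47, SE 0.36, adjusted p = 0.000186 against oocytes), and implantation sites were above blastocysts (log2 1.64, SE 0.36, adjusted p = 0.00488). Of the other 3 Eif4e probe sets, 2 had the same sign in both comparisons and 1 had the opposite sign in both. Eif4e2, a homologue that binds the cap without joining the initiation complex and represses translation, ran the other way on its representing probe set. That probe set read 183 in KO and 376 in WT oocytes. Blastocysts gave 5941 and 5968 in KO and 10776 and 7838 in WT, and implantation sites gave 3544 in KO and 2858 in WT. Blastocysts were higher than oocytes (log2 4.82, SE 0.34, adjusted p = 1.43e-06), where the KO array was below its brightest control, and implantation sites were lower than blastocysts (log2 -1.22, SE 0.34, adjusted p = 0.0163). The remaining 4 Eif4e2 probe sets read 48.3 to 1795 on the oocyte and blastocyst arrays and moved by -0.15 to 2.09 between oocytes and blastocysts, so the size of this rise rests on 1 probe set.

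Among the helicases, Eif4a1, the main cap-complex helicase, read 12207 in KO and 33628 in WT oocytes. Its blastocyst signal was 9117 and 8835 in KO and 11092 and 9819 in WT, lower than in oocytes (log2 -1.07, SE 0.38, adjusted p = 0.0398), with the WT oocyte array far above all others. Without that oocyte array, 4 factor genes in place of 7 passed as lower in blastocysts. Eif4a2, the second helicase, read 5029.7 in KO and 6927 in WT oocytes. Blastocysts gave 2274 and 2574 in KO and 3916 and 3457 in WT, and implantation sites gave 6807 in KO and 6818 in WT. Blastocysts had the lowest Eif4a2 signal of the 3 stages, without overlap (log2 -0.98, SE 0.28, adjusted p = 0.0139 against oocytes; log2 1.19, SE 0.28, adjusted p = 0.00753 for implantation sites against blastocysts). Eif4a3, the helicase of the exon junction complex, did not pass the filter and read 362 in KO and 40.2 in WT oocytes. Blastocysts gave 57.8 and 145 in KO and 151 and 252 in WT, and implantation sites gave 7.79 in KO and 17.3 in WT. Eif4a3 was above the brightest control on 2 of 8 arrays.

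Eif4h, a cofactor that stimulates the helicase, had the largest rise of the family. It read 344 in KO, close to the brightest control of that array (334), and 1221 in WT oocytes. Blastocysts gave 17173 and 17522 in KO and 34007 and 22979 in WT, and implantation sites gave 9069 in KO and 11327 in WT. All blastocyst arrays were at least 17173, far above both oocyte arrays (log2 5.09, SE 0.35, adjusted p = 1.43e-06), and implantation sites were lower than blastocysts again (log2 -1.12, SE 0.35, adjusted p = 0.0289). Eif4b, which shares this role, read 2367 in KO and 2168 in WT oocytes. Blastocysts gave 1587 and 3367 in KO and 3657 and 3542 in WT, and implantation sites gave 3418 in KO and 9427 in WT. Oocytes and blastocysts overlapped for Eif4b, and on this probe set implantation sites were above oocytes (log2 1.33, SE 0.45, adjusted p = 0.0377). The WT implantation site array was far above the KO one. Other Eif4b probe sets gave 0.30 and, with the opposite sign, -0.65 in that contrast, so its direction depended on the probe set. The scaffold-like Eif4g2, a translation regulator without the cap-binding partner site, read 32212 in KO and 53204 in WT oocytes. Blastocysts gave 37879 and 43059.7 in KO and 57142 and 39366 in WT, and implantation sites gave 47536 in KO and 35376 in WT. Eif4g2 did not pass between any stages (adjusted p from 0.867 to 0.985). Eif4g3, a scaffold of the cap complex, read 385 in KO and 824 in WT oocytes. Blastocysts gave 568 and 709.9 in KO and 659 and 908 in WT, and implantation sites gave 723 in KO and 742 in WT. The stages of Eif4g3 overlapped.

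**Figure D3:**
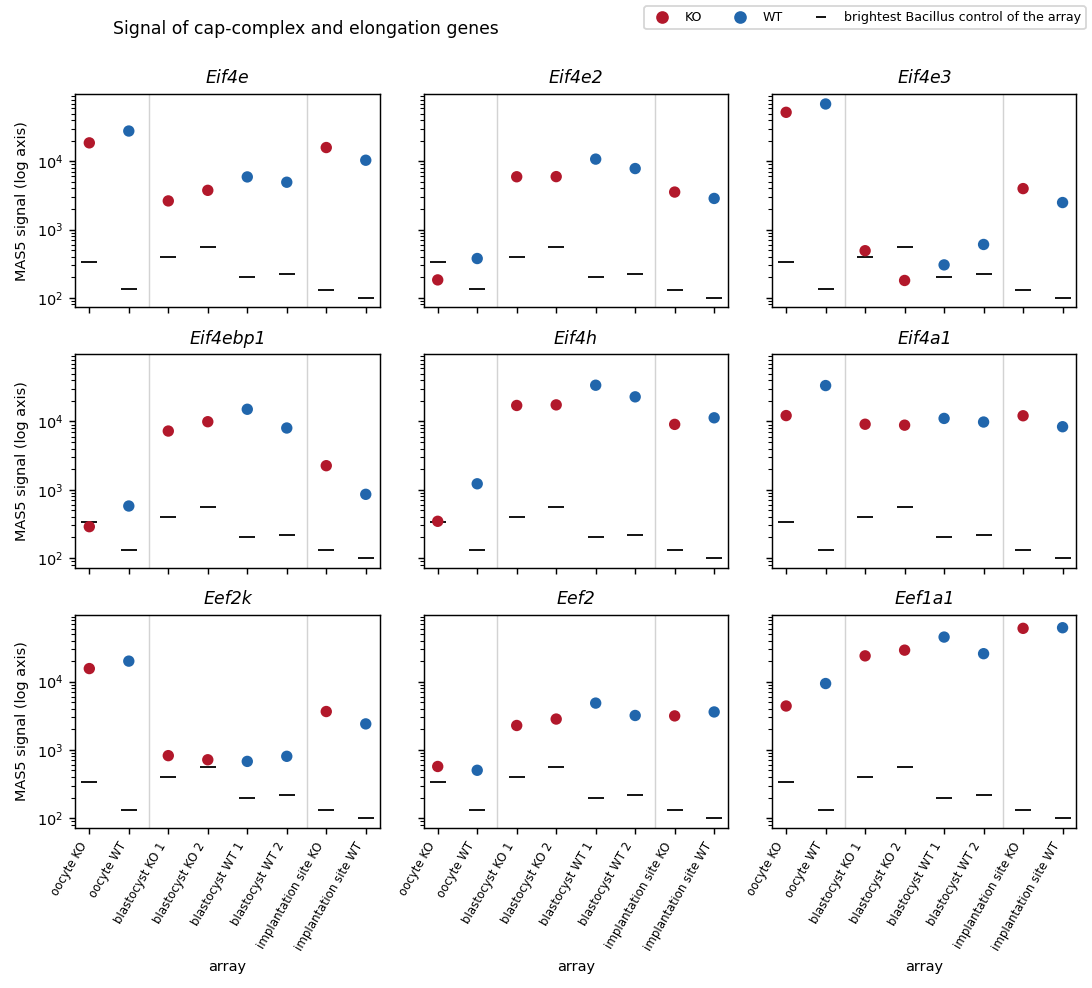
MAS5 signal (log axis) of 9 translation factor genes on each array (x axis, KO in red left of WT in blue within a stage), with the brightest Bacillus control of each array as a dash. Eif4e3 and Eef2k are highest on the oocyte arrays, at 52301 and 69279 for Eif4e3, while Eif4e2 and Eif4ebp1 are below the control on the KO oocyte array, and Eif4e2, Eif4ebp1 and Eif4h are highest on the blastocyst arrays.

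The repressors that bind Eif4e also differed between stages. Eif4ebp1, which holds Eif4e away from the scaffold until mTOR phosphorylates it, read 287 in KO and 577 in WT oocytes. Blastocysts gave 7243 and 9925 in KO and 15106 and 8026 in WT, and implantation sites gave 2250.3 in KO and 856 in WT. It was high only on blastocyst arrays (log2 4.57, SE 0.46, adjusted p = 1.38e-05 against oocytes; log2 -2.80, SE 0.46, adjusted p = 0.000974 for implantation sites against blastocysts), and its KO oocyte signal was below the brightest control. Only 1 of 2 oocyte arrays was above its brightest control for Eif4ebp1, and likewise for Eif4ebp2, Eif4e2, Eif3d, Eif3f, Eif3k and Eif3m, so their differences from oocytes rest partly on signals at background. Its relative Eif4ebp2 read 458 in KO and 85.5 in WT oocytes. Blastocysts gave 794 and 1541 in KO and 2547 and 1655 in WT, and implantation sites gave 836 in KO and 773 in WT. Its signal was higher in blastocysts than in oocytes (log2 2.93, SE 0.64, adjusted p = 0.00302). Eif4enif1, which carries Eif4e into the nucleus and into repressed particles, read 2466 in KO and 1262 in WT oocytes. Blastocysts gave 1597 and 1791 in KO and 1518 and 1589 in WT, and implantation sites gave 1248 in KO and 1289 in WT. The Eif4enif1 stages overlapped between blastocysts and oocytes and no stage contrast passed.

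In the Eif2 class, which delivers the initiator tRNA, Eif2s2 encodes the beta subunit. Its representing probe set read 74392 in KO and 113958 in WT oocytes. Blastocysts gave 60935 and 47096 in KO and 61814 and 32714 in WT, and implantation sites gave 23197 in KO and 16593 in WT. Implantation sites were the lowest stage (log2 -1.32, SE 0.42, adjusted p = 0.03 against blastocysts; log2 -2.23, SE 0.49, adjusted p = 0.00386 against oocytes), whereas blastocysts and oocytes did not pass (adjusted p = 0.101). Probe sets of this gene gave opposite stage patterns. Another read 52122 in KO and 85655 in WT oocytes, and 5363 and 5356 in KO and 8453 and 6251 in WT blastocysts. A further one read 1911 in KO and 2272 in WT oocytes, and 42940.3 and 39566 in KO and 55661 and 42114 in WT blastocysts. Blastocyst minus oocyte was thus -3.42 and 4.42 for this pair, with no overlap in either, and the direction for Eif2s2 differed between its probe sets, whose positions were not analysed here.

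**Figure D4:**
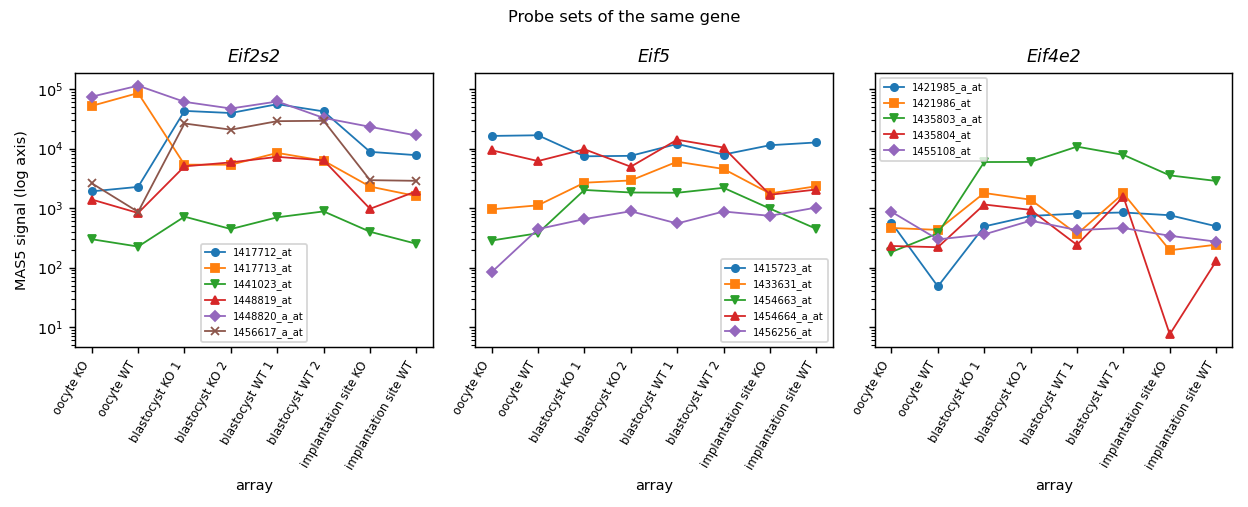
MAS5 signal (log axis) on each array (x axis, KO left of WT within a stage) for every probe set of Eif2s2, Eif5 and Eif4e2 that passed the filter, 1 line per probe set. For Eif2s2, 1 line has a blastocyst minus oocyte difference of -3.42 and another of 4.42, and the Eif5 and Eif4e2 lines also differ in direction.

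The gamma subunit gene on the X chromosome, Eif2s3x, read 2799 in KO and 3524 in WT oocytes. Blastocysts gave 4794 and 3787 in KO and 8572 and 7134 in WT, and implantation sites gave 11614 in KO and 8313 in WT. It was higher in implantation sites than in oocytes (log2 1.65, SE 0.39, adjusted p = 0.00666). Its Y-linked partner Eif2s3y, which did not pass the filter, read 25.7 in KO and 64.3 in WT oocytes. Blastocysts gave 308 and 285 in KO and 252 and 299.7 in WT, and implantation sites gave 30.6 in KO and 39.2 in WT. It was above the brightest control on the 2 WT blastocyst arrays alone, so no difference is given for it. Eif2a and Eif2d, factors that can deliver initiator tRNA outside the eIF2 complex, both rose in blastocysts on their representing probe sets and were lower again at implantation sites. Eif2d read 1525 in KO and 721 in WT oocytes. Blastocysts gave 5061 and 5689.6 in KO and 7889 and 5430.2 in WT, and implantation sites gave 1429.6 in KO and 1302 in WT. The Eif2d rise (log2 2.50, SE 0.35, adjusted p = 0.000153) and fall (log2 -2.12, SE 0.35, adjusted p = 0.00103) were without overlap. Eif2a read 385 in KO and 405 in WT oocytes. Blastocysts gave 1244 and 1265 in KO and 1942 and 1158 in WT, and implantation sites gave 573 in KO and 368 in WT. The same holds for Eif2a on this probe set (log2 1.80, SE 0.40, adjusted p = 0.00353; log2 -1.58, SE 0.40, adjusted p = 0.0113), but with all probe sets averaged its implantation site minus blastocyst difference was 0.99.

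The exchange factor Eif2b has alpha to epsilon subunits encoded by Eif2b1 to Eif2b5. Eif2b5, the catalytic subunit, read 66 in KO and 49 in WT oocytes. Blastocysts gave 376 and 985 in KO and 803 and 826 in WT, and implantation sites gave 91.8 in KO and 249 in WT. Both oocyte signals were below the brightest controls. Blastocysts were at least 3.35-fold higher, setting the mean of the brighter group against the brightest control of each dim array. The adjusted p of 0.00104 belongs to the limma difference of the signals as read (log2 3.63, SE 0.68), not to this bound. The delta subunit gene Eif2b4 read 345 in KO and 554 in WT oocytes. Blastocysts gave 1659 and 2423 in KO and 3089 and 2108 in WT, and implantation sites gave 1069 in KO and 816 in WT. The beta subunit gene Eif2b2 read 959.6 in KO and 1500.1 in WT oocytes. Blastocysts gave 2469 and 3066 in KO and 5193 and 3567 in WT, and implantation sites gave 2786 in KO and 2044 in WT. Both rose in blastocysts without overlap (log2 2.37, SE 0.37, adjusted p = 0.000302 for Eif2b4; log2 1.52, SE 0.34, adjusted p = 0.00354 for Eif2b2). The gamma subunit gene Eif2b3 read 554 in KO and 577 in WT oocytes. Blastocysts gave 1717 and 1051 in KO and 528 and 1343 in WT, and implantation sites gave 513 in KO and 718 in WT. Eif2b3 passed in no stage contrast.

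Eif2b1, the alpha regulatory subunit gene with a single probe set, was the exception. It read 606 in KO and 3435 in WT oocytes. Blastocysts gave 552 and 218 in KO and 537 and 1878 in WT, and implantation sites gave 430.4 in KO and 1389 in WT. KO was below WT in oocytes and implantation sites, whereas in blastocysts the first WT array lay at the KO level. Stage differences of Eif2b1 did not pass (adjusted p = 0.0815 for blastocyst minus oocyte).

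Eif3, the largest initiation complex, had 10 of 11 subunits higher in blastocysts than in oocytes, but the sign of Eif3h turned with all probe sets averaged (-0.67). The other Eif3h probe sets in that average did not pass the filter. They read 1.72 to 113 and were below the brightest control on every array. Eif3f, a core subunit, read 292 in KO and 440 in WT oocytes. Blastocysts gave 8237 and 9741 in KO and 16163 and 14291 in WT, and implantation sites gave 4881 in KO and 4059.7 in WT. Every blastocyst array exceeded every oocyte array by a wide margin (log2 5.02, SE 0.31, adjusted p = 7.73e-07). Eif3c, a subunit of the octamer core, read 619 in KO and 1325 in WT oocytes. Blastocysts gave 6246 and 11227 in KO and 20448 and 12393 in WT, and implantation sites gave 5974 in KO and 5058 in WT. Eif3c rose in blastocysts (log2 3.67, SE 0.38, adjusted p = 1.78e-05). Eif3k read 125 in KO and 258 in WT oocytes. Blastocysts gave 2184 and 2269 in KO and 2272 and 2290.2 in WT, and implantation sites gave 575 in KO and 532 in WT. Eif3k rose too (log2 3.65, SE 0.38, adjusted p = 1.8e-05), and for both, implantation sites lay between the other stages. Eif3b, the scaffold that holds the peripheral subunits, read 159 in KO and 24 in WT oocytes. Blastocysts gave 676 and 942 in KO and 1983 and 1342 in WT, and implantation sites gave 829 in KO and 775 in WT. Its oocyte signals were below the brightest controls, and blastocysts were at least 5.43-fold higher (adjusted p = 0.000542 for the limma difference as read, log2 4.21). Eif3a, the largest subunit, read 4660.4 in KO and 3073 in WT oocytes. Blastocysts gave 12319.6 and 10835 in KO and 18249 and 13663 in WT, and implantation sites gave 11386 in KO and 15392 in WT. Eif3a was higher in blastocysts than in oocytes (log2 1.84, SE 0.33, adjusted p = 0.000795).

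On their representing probe sets, a pair of Eif3 subunits departed from this order. Eif3e read 33649.8 in KO and 53398 in WT oocytes. Blastocysts gave 31791 and 27748 in KO and 43456 and 27958 in WT, and implantation sites gave 39859.7 in KO and 30728 in WT. On this probe set the stages of Eif3e overlapped, and blastocysts against oocytes did not pass (adjusted p = 0.421). Another Eif3e probe set that passed the filter moved by 0.17. A further one read 1291 in KO and 3218 in WT oocytes, and 19683 and 17817 in KO and 26621 and 21953 in WT blastocysts. Its difference was 3.38, so the departure of Eif3e depended on the probe set. Eif3m read 132 in KO and 203 in WT oocytes. Blastocysts gave 476 and 451 in KO and 1187 and 965 in WT, and implantation sites gave 3429 in KO and 3026 in WT. It increased from stage to stage without overlap, by 2.11 (SE 0.42) from oocyte to blastocyst and by 2.19 (SE 0.42, adjusted p = 0.00242) from blastocyst to implantation site. The other Eif3m probe set moved by 2.44 and by -0.40, so the direction of the later step depended on the probe set. On representing probe sets Eif3m was the 1 Eif3 subunit higher at implantation sites than in blastocysts, while 5 were lower there: Eif3k, Eif3i, Eif3l, Eif3f and Eif3c, by -2.03 to -1.07.

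Among the remaining initiation factors, Eif5b, the GTPase of subunit joining, read 3482 in KO and 3277 in WT oocytes. Blastocysts gave 1012 and 1309.9 in KO and 958 and 1253 in WT, and implantation sites gave 601 in KO and 676 in WT. It was highest in oocytes and lowest at implantation sites, without overlap (log2 -1.59, SE 0.32, adjusted p = 0.00183; log2 -2.41, SE 0.37, adjusted p = 0.000454 for implantation sites against oocytes). Eif1a, a scanning factor, ran the other way, with 487 in KO and 686 in WT oocytes. Blastocysts gave 5203 and 4253 in KO and 6913 and 5463 in WT, and implantation sites gave 5227 in KO and 5496 in WT. Blastocysts were higher than oocytes (log2 3.22, SE 0.28, adjusted p = 5.79e-06). Its X-linked paralogue Eif1ax read 724 in KO and 1403 in WT oocytes. Blastocysts gave 2534 and 3296 in KO and 5166 and 3155 in WT, and implantation sites gave 4225 in KO and 2621 in WT. Eif1ax rose in blastocysts as well (log2 1.76, SE 0.38, adjusted p = 0.00272). Cross-hybridisation between these similar transcripts was not tested.

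Eif5, the GTPase-activating protein of start codon recognition, read 16302 in KO and 16730 in WT oocytes. Blastocysts gave 7414 and 7550.3 in KO and 11949.5 and 7930.1 in WT, and implantation sites gave 11377 in KO and 12671 in WT. On this representing probe set Eif5 fell in blastocysts (log2 -0.95, SE 0.30, adjusted p = 0.0226), but the other 4 probe sets of the gene moved by 0.27 to 2.57 in the opposite direction. Eif5a, a factor that carries hypusine and helps stalled ribosomes, read 15336 in KO and 18664 in WT oocytes. Blastocysts gave 14842 and 12386 in KO and 17714 and 13442 in WT, and implantation sites gave 10286 in KO and 10843 in WT. Eif5a passed in no stage contrast. Its paralogue Eif5a2 was dim, with 154 in KO and 218 in WT oocytes. Blastocysts gave 333 and 364 in KO and 58.1 and 232 in WT, and implantation sites gave 215 in KO and 441 in WT. Eif5a2 was above the brightest control on 4 of 8 arrays. Eif6, which keeps the large subunit from joining too early, read 533 in KO and 684 in WT oocytes. Blastocysts gave 1941 and 2189 in KO and 4304 and 2806 in WT, and implantation sites gave 1035 in KO and 1218 in WT. Eif6 rose in blastocysts and fell at implantation sites (log2 2.15, SE 0.33, adjusted p = 0.000264; log2 -1.25, SE 0.33, adjusted p = 0.0127). Eif1b, close to the start codon selection factor Eif1, read 2091 in KO and 1692 in WT oocytes. Blastocysts gave 963 and 836 in KO and 1039 and 882 in WT, and implantation sites gave 883 in KO and 336 in WT. Eif1b was lower in implantation sites than in oocytes (log2 -1.79, SE 0.46, adjusted p = 0.0101).

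In the elongation class, the kinase Eef2k, which phosphorylates and inactivates eEF2, followed the pattern of Eif4e3. It read 15548 in KO and 19989 in WT oocytes. Blastocysts gave 823 and 716 in KO and 678 and 805 in WT, and implantation sites gave 3648 in KO and 2403 in WT. Oocytes were highest and blastocysts lowest without overlap (log2 -4.55, SE 0.31, adjusted p = 1.2e-06; log2 1.98, SE 0.31, adjusted p = 0.000677 from blastocyst to implantation site). Its target Eef2 read 571 in KO and 502 in WT oocytes. Blastocysts gave 2278 and 2830.3 in KO and 4848 and 3193 in WT, and implantation sites gave 3147 in KO and 3596 in WT. On this probe set Eef2 was higher in blastocysts than in oocytes (log2 2.56, SE 0.33, adjusted p = 7.58e-05). With all probe sets of Eef2 averaged the sign turned (-0.39). The other probe set in that average did not pass the filter and read 4.98 to 150 on the oocyte and blastocyst arrays. Its signal was below the brightest control on these arrays except the WT oocyte array, where it read 139.6 against 132. The turn thus rests on signals near background.

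The tRNA-delivering GTPase gene Eef1a1 read 4396 in KO and 9382 in WT oocytes. Blastocysts gave 23874 and 28952 in KO and 45019 and 25692 in WT, and implantation sites gave 60446 in KO and 61709.7 in WT, with no overlap between stages. It was higher in blastocysts and in implantation sites than in oocytes (log2 2.22, SE 0.37, adjusted p = 0.000518; log2 3.25, SE 0.43, adjusted p = 0.00017), while implantation site minus blastocyst was 1.03 (adjusted p = 0.0512). Its exchange factor subunits rose in blastocysts too. Eef1b2 read 7831 in KO and 14695 in WT oocytes. Blastocysts gave 42047 and 43115 in KO and 39863 and 22358 in WT, and implantation sites gave 42776 in KO and 28964 in WT. Blastocysts were above oocytes for Eef1b2 (log2 1.73, SE 0.42, adjusted p = 0.00516). Eef1d read 1578 in KO and 1094 in WT oocytes. Blastocysts gave 11035 and 13832 in KO and 18553 and 12911 in WT, and implantation sites gave 10092 in KO and 6412 in WT. Eef1d also rose (log2 3.40, SE 0.33, adjusted p = 1.14e-05). Eef1e1, a component of the tRNA synthetase complex, peaked in blastocysts with 353 in KO and 223 in WT oocytes. Blastocysts gave 3008 and 4229.8 in KO and 3695 and 3104 in WT, and implantation sites gave 813 in KO and 780.1 in WT. Both steps passed (log2 3.63, SE 0.33, adjusted p = 7.37e-06; log2 -2.13, SE 0.33, adjusted p = 0.000735). The methyltransferase gene Eef1akmt1, whose product modifies eEF1A, read 123 in KO and 104 in WT oocytes. Blastocysts gave 2134 and 3729 in KO and 2099 and 1506 in WT, and implantation sites gave 515 in KO and 445 in WT. Its oocyte signals were below the brightest controls and blastocysts were at least 10.7-fold higher (adjusted p = 8.96e-06 for the limma difference as read, log2 4.31). Eef1a2, the isoform of muscle and neurons, did not pass the filter and read 341 in KO and 64.2 in WT oocytes. Blastocysts gave 245 and 255 in KO and 112 and 186 in WT, and implantation sites gave 53.3 in KO and 69.4 in WT. Eef2kmt, which did not pass either, read 11.0 to 420.1 over the 8 arrays.

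Between implantation sites and blastocysts fewer factors differed. Of the 50, 5 were higher at implantation sites (15.3% of all tested genes were) and 17 were lower (20% of all tested genes were), with a median of -0.48 beside -0.36 for all tested genes. On their representing probe sets the 5 were Eif4e3, Eif3m, Eef2k, Eif4e and Eif4a2, 4 of which had fallen between oocytes and blastocysts. The largest falls were those of Eif4ebp1 (-2.80), Eef1akmt1 (-2.23), Eif2b5 (-2.22), Eef1e1 (-2.13) and Eif2d (-2.12), with adjusted p between 0.000735 and 0.0253, followed by Eif3k, Eif3i and Eif2a. Eif3i, a subunit of the Eif3 peripheral module, read 12093 in KO and 5355 in WT implantation sites, against 19956 and 20289.9 in KO and 32978 and 25929 in WT blastocysts. Scaling the arrays to a common median moved all tested genes by 0.36, left 6 factors lower in place of 17, and called 2066 of all tested genes higher and 1598 lower, beside 1798 and 2353 as deposited. In place of 17, 7 were lower without the WT implantation site array and 11 without the second KO blastocyst array. Without the KO implantation site array 2 in place of 5 were higher.

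Implantation sites against oocytes gave 22 higher (20.5% of all tested genes were) and 5 lower (16.6% were) of the 50, 27 in all (37.2% of all tested genes), with a median of 1.21 beside -0.06 for all tested genes. Without the WT oocyte array 3 in place of 5 were lower. The 5 lower were Eif4e3, Eef2k, Eif5b, Eif2s2 and Eif1b. The largest rises were those of Eif3m (4.30), Eif4h (3.97), Eif3b, Eif3f (3.63), Eif4e2 (3.60), Eef1a1 (3.25), Eif1a (3.21) and Eef2 (2.65), where Eif3b, with both oocyte signals below the brightest control, was at least 3.81-fold higher. The sign turned for Eif4h (-0.50) and Eif4e2 (-1.04) with probe sets without a suffix, and for Eef2 (-0.093) with all probe sets averaged. When every probe set of a gene was averaged, 14 in place of 22 were higher and the median was 0.28. Other probe sets of the same genes had the same sign as the representing one in 52 of 66 cases for blastocyst minus oocyte, in 46 of 66 for implantation site minus blastocyst and in 35 of 66 for implantation site minus oocyte.

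Between KO and WT blastocysts no translation factor passed. With limma on the 4 blastocyst arrays, 0 of the 50 were higher, where 0.102% of all tested genes were, and 0 were lower, where 0% of all tested genes were; at an unadjusted p under 0.05, 0 were higher and 7 lower, beside 1030 and 789 of all 11745 tested genes. The smallest adjusted p among the factors was 0.24. Of the 50, 36 had a lower mean in KO and 14 a higher one, with a median of -0.36 beside -0.01 for all tested genes. In 20 of the 50 (40%) both KO arrays were below both WT arrays, beside 25.3% of all tested genes, and in 5 (10%) both were above, beside 23.8%.

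This lower signal was shared by other bright genes. The 1491 other genes with a signal at least that of the median factor had a median of -0.36, and 79.3% of them were lower in KO, while the 25 factors at that level had a median of -0.39 and 22 were lower. The ratio of the 3' to the 5' control probe set of Actb was 25.7 and 39.0 on the KO and 69.3 and 69.1 on the WT arrays, that of Gapdh 11.2 and 11.8 on the KO and 7.27 and 7.71 on the WT arrays, and the 6 immune and blood markers summed to 7776 and 14108 on the KO and 1186 and 4711 on the WT arrays, with Csf1r the largest part and Ptprc, Hba-a1 and Alas2 below the brightest control on all 4 arrays. The 6 inner cell mass markers summed to 14282 and 15560 on the KO and 31183 and 22424 on the WT arrays, with Sall4 the largest part. Both KO arrays were below both WT arrays for Sall4, Klf4, Sox2 and Fgf4, and Nanog overlapped. Pou5f1 went the other way, with 1598 and 1315 on the KO and 1215 and 997 on the WT arrays. The part of these values in the result was not tested. Among replicates, the first WT array was above the array labelled WT replicate 2 in 38 of the 50 factors (median 0.37), beside the median of -0.36 between genotypes. Without the first WT array the median was -0.10, and without the array labelled WT replicate 2 it was -0.57.

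Eif4 had the most uniform sign, with all 9 tested members lower in KO blastocysts (median -0.61), as they also were after quantile normalization. Scaling to a common median moved all tested genes by -0.25 in this comparison, so its 9 of 9 adds nothing. With all probe sets averaged and with probe sets without a suffix 7 of 9 were lower, and without the first WT or the second KO array 8 of 9. Eif4e read 2629 and 3758 in KO, against 5908 and 4939 in WT. The groups did not overlap, and the difference of -0.78 (SE 0.30) did not pass (adjusted p = 0.283). Eif3 had 9 of 11 lower (median -0.45), and its largest difference was that of Eif3m, which read 476 and 451 in KO, against 1187 and 965 in WT (log2 -1.21, SE 0.40, adjusted p = 0.24). The other Eif3m probe set had the opposite sign (0.16). Eif3b followed with 676 and 942 in KO, against 1983 and 1342 in WT (log2 -1.03, SE 0.38, adjusted p = 0.269).

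In the Eif2 class, Eif2s3x read 4794 and 3787 in KO, against 8572 and 7134 in WT (log2 -0.88, SE 0.29, adjusted p = 0.24), again without overlap. Another Eif2s3x probe set gave -0.83. A further one had the opposite sign (0.61), with 3360 and 2680 in KO, against 1453 and 2659 in WT, also without overlap. Eif2b1 had the largest negative difference of the 50 (-1.53, SE 0.69, adjusted p = 0.335), but its groups overlapped. Among the repressors Eif4ebp2 read 794 and 1541 in KO, against 2547 and 1655 in WT (log2 -0.89, SE 0.41, adjusted p = 0.345). In the elongation class 6 of 9 had a higher mean in KO (median 0.07), but of these only Eef1b2 is a subunit of an elongation factor itself, and the others are Eef1akmt1, Eef1akmt2, Eef1aknmt, Eef1e1 and the kinase gene Eef2k. Eef1a1 (-0.37), Eef1d (-0.33) and Eef2 (-0.63) had lower means in KO, and none of these differences passed. Eef1aknmt, which encodes another eEF1A methyltransferase, read 742 and 477 in KO, against 309 and 432 in WT (log2 0.71, SE 0.50, adjusted p = 0.52). Eef1b2 read 42047 and 43115 in KO, against 39863 and 22358 in WT, a difference of 0.51 (SE 0.39). After scaling to a common median 4 of the 9 had a higher mean. The largest difference in size, 1.59 for Eif5a2, rests on background, with 333 and 364 in KO, against 58.1 and 232 in WT: both KO arrays and 1 WT array were below their brightest control.

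**Figure D5:**
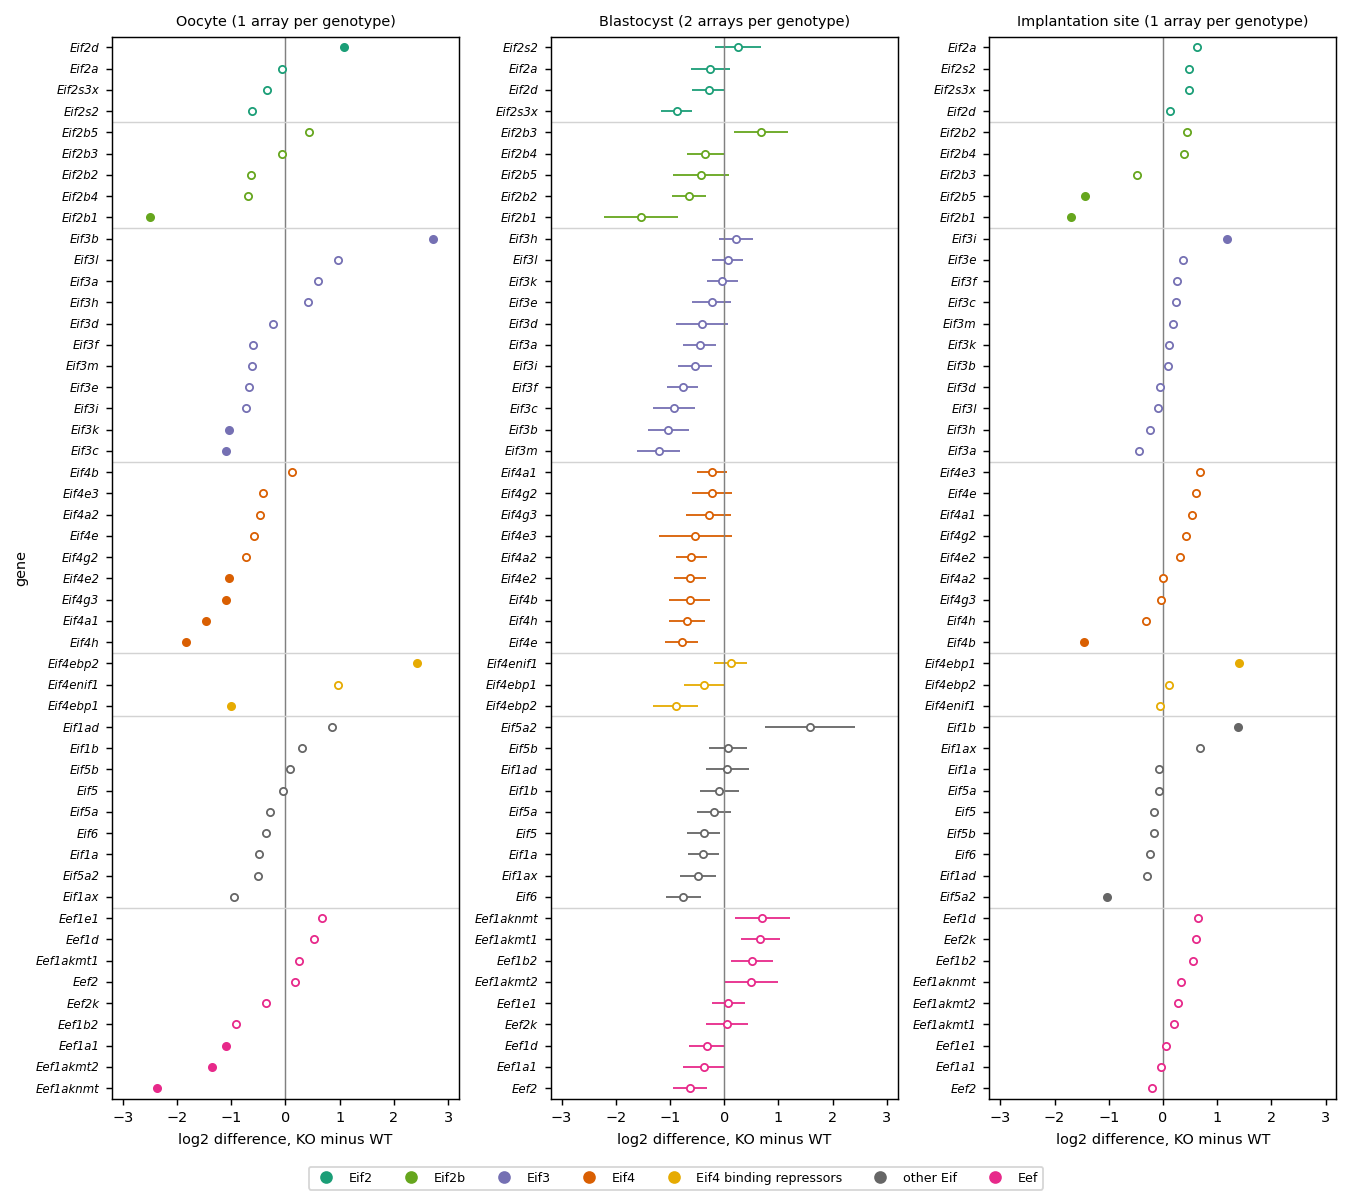
Log2 difference, KO minus WT (x axis), for each translation factor gene (y axis, grouped by complex), in oocytes, blastocysts and implantation sites. Bars in the blastocyst panel are standard errors from limma on 2 arrays per genotype, where no gene passed and every point is open; in the other panels, with 1 array per genotype and no error, filled points are at least 2-fold apart.

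Over the 3 stages, limma with stage as a term called 0 of the 50 higher and 0 lower in KO, and 0% of all tested genes in either direction. At an unadjusted p under 0.05, 0 factors were higher and 2 lower, beside 428 and 385 of all tested genes, and the median was -0.19. The pair was Eif2b1 (-1.82, SE 0.46, unadjusted p = 0.00209, adjusted p = 0.707) and Eif4h (-0.88, SE 0.29, unadjusted p = 0.0106, adjusted p = 0.707). Both were lower in KO at each stage, together with Eef1a1, Eif1a, Eif3d, Eif4a2, Eif4g3, Eif5, Eif5a and Eif6, so that 10 of 50 (20%) had a lower KO mean at all 3 stages, beside 11.5% of all tested genes. Some of these differences were close to 0, such as Eif4a2 (-0.0023) and Eef1a1 (-0.03) at implantation sites and Eif5 (-0.037) in oocytes. Eef1akmt1 and Eef1e1 were higher at all 3 stages (4%), beside 9.37% of all tested genes, although both oocyte signals of Eef1akmt1 were below the brightest control. The lower signal over the stages was again shared by other bright genes. The 1491 other bright genes had a median of -0.24 in this fit, and 80.2% of them were lower. The 25 factors at that level had a median of -0.31, and 20 were lower.

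In oocytes, with 1 array per genotype and no replicate check, 3 of the 50 factors were at least 2-fold higher in KO, where 23.9% of all tested genes were, and 11 were at least 2-fold lower, where 12.3% were. Of the 11, 6 were above the brightest control on both arrays (Eef1a1, Eif2b1, Eif3c, Eif4a1, Eif4g3 and Eif4h), whereas the KO signals of Eef1akmt2, Eef1aknmt, Eif3k, Eif4e2 and Eif4ebp1 were below it, so for these a 2-fold difference is not shown. The median was -0.43 beside 0.09 for all tested genes, and -0.48 for the 1491 other bright genes. Eif2b1 read 606 in KO, against 3435 in WT, and was 5.67-fold lower in KO. Eif4h read 344 in KO, against 1221 in WT, and Eif4a1 12207 in KO, against 33628 in WT, 3.55-fold and 2.75-fold lower. The KO signal of Eif4h was close to the brightest control (334), and with probe sets without a suffix its difference was 0.35, the opposite sign. Eef1aknmt read 93 in KO, against 479 in WT, below the brightest control in KO and at least 1.43-fold lower there. The higher ones were Eif2d, with 1525 in KO, against 721 in WT, Eif4ebp2, with 458 in KO, against 85.5 in WT, below the control in WT and at least 3.46-fold higher in KO, and Eif3b, below the control in both. Eif3l, another Eif3 subunit, and Eif4enif1 followed with differences of 0.98 (488 in KO, against 248 in WT) and 0.97 (2466 in KO, against 1262 in WT). The KO oocyte array had a brightest control of 334 against 132 on the WT array and 3' to 5' ratios of 6.68 for Actb and 2.41 for Gapdh, against 33.4 and 10.1 on the WT array; their part in the result was not tested. Scaling to a common median moved all tested genes by -0.55 in oocytes and left 25 factors at least 2-fold lower. Of all tested genes 1673 were then at least 2-fold higher and 3443 lower, beside 2809 and 1443 as deposited, and quantile normalization gave 1803 and 2209.

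At implantation sites 3 of the 50 factors were at least 2-fold higher in KO, where 6.12% of all tested genes were, and 4 were at least 2-fold lower, where 15.9% were. The median was 0.12 beside -0.13 for all tested genes and 0.27 for the other bright genes. Eif4ebp1 read 2250.3 in KO, against 856 in WT (2.63-fold higher), Eif1b 883 in KO, against 336 in WT, and Eif3i 12093 in KO, against 5355 in WT. Eif1ax followed with 0.69. With probe sets without a suffix the sign turned for Eif4ebp1 (-0.44), Eif3i (-0.026) and Eif1ax (-1.14). The lower ones were Eif2b1, with 430.4 in KO, against 1389 in WT (3.23-fold), Eif4b, with 3418 in KO, against 9427 in WT, Eif5a2, and Eif2b5, with 91.8 in KO, against 249 in WT, below the control in KO and at least 1.90-fold lower there. After scaling to a common median all tested genes moved by 0.41, and 9 factors were at least 2-fold higher. Of all tested genes 1730 were then at least 2-fold higher and 1086 lower, beside 719 and 1862 as deposited, and quantile normalization gave 881 and 1164. With all probe sets averaged the median was -0.03, and with probe sets without a suffix -0.06, so the sign of the median at implantation sites depended on the probe sets used.

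Other genes of the translation pathway were read from lists of related genes, with log2 differences in parentheses. In KO against WT blastocysts 0 genes of any of the 7 lists passed, with medians from -0.30 to 0.09. Between blastocysts and oocytes, where 26.9% of all tested genes were higher and 18.6% lower, 13 of 20 cytoplasmic tRNA synthetase genes with their complex proteins were higher and 2 lower (median 2.41), led by the alanyl synthetase Aars (4.26), the glutaminyl synthetase Qars (4.18) and the complex protein Aimp1 (3.61), whereas Kars (-1.44) and Eprs (-0.80) were lower. For Aars, Aimp1, Psat1, Asns, Dhps, Dph5 and Tufm the KO oocyte array was below its brightest control, so the sizes given for them rest partly on background. Of 12 eIF2 kinase and stress genes 8 were higher and 1 lower. Psat1, a serine synthesis enzyme, rose by 7.69 on the log2 scale (SE 0.49), and the ATF4 target Asns by 3.37, while Trib3, another such target with both oocyte signals below the brightest control, was at least 12.5-fold higher, and the amino acid sensing kinase Eif2ak4 was lower (-1.65, adjusted p = 0.0308).

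The poly(A) and cap partners ran against the factors, with 7 of 13 lower in blastocysts and 4 higher (median -3.19). Lower were Dazl (-5.20), a germ cell translation regulator, Paip1 (-5.15), a partner of poly(A)-binding protein, and Lsm14b (-5.05), a component of oocyte mRNA particles, and also Lsm14a, Paip2b, Cpeb3 and Cpeb4. Pabpc1, the general poly(A)-binding protein, was higher: it read 24860.3 and 27140.3 in KO and 40448 and 29187 in WT blastocysts, against 1824 in KO and 2127 in WT oocytes (log2 3.92, SE 0.31, adjusted p = 2.77e-06). Among 12 mTOR and MAP kinase genes 3 were higher, among them Larp1, which represses mRNAs with a pyrimidine start, and 5 lower, led by the mTOR activator Rheb (-2.39). Larp1 was below the brightest control on both oocyte arrays and at least 11.2-fold higher in blastocysts. Beside 26.9% of all tested genes higher and 18.6% lower, termination and release factors gave 5 higher and 1 lower of 9. Among them Etf1, which recognises stop codons, was at 3.23. Modification enzymes gave 4 and 2 of 11, including Dhps, which makes hypusine on eIF5A (4.13), and Dph5, which makes diphthamide on eEF2 (3.93). Mitochondrial translation factors gave 3 and 0 of 8, with Tufm at 2.93.

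From blastocyst to implantation site, where 15.3% of all tested genes were higher and 20% lower, 9 of the 20 synthetase genes were lower and 2 higher, and 4 of 12 stress genes were lower and 0 higher, with Sesn2 (-5.15, 1 of 2 implantation site arrays above its brightest control) and Trib3 (-3.12) the largest. Termination genes gave 1 higher and 4 lower of 9, the mTOR list 3 and 2 of 12, the poly(A) and cap partners 4 and 2 of 13, modification enzymes 0 and 2 of 11, and mitochondrial factors 0 and 1 of 8. Rheb (1.19), Cpeb4 (2.41) and Lsm14b (1.21), which were low in blastocysts, were among the higher ones.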

How the data were processed

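Signal intensity per probe set was deposited by the authors for 8 one-colour Affymetrix arrays of 45101 probe sets; per the submitters' processing notes it was made with MAS5 (the sources used here give no version). Every array had been scaled to a 2% trimmed mean of 500. Precision is limited by how few arrays there are. Genes were named through the platform annotation, 1 probe set per gene (highest mean log2 signal), from 34945 probe sets of 1 gene, with 932 of several genes left out. Probe sets in the upper 50% by mean log2 signal were kept, leaving 11745 genes. Log2 signal was tested with limma 3.58.1 in R 4.3.3 (lmFit, eBayes with trend), with Benjamini-Hochberg adjusted p over all tested genes, after a test on simulated data; KO minus WT in blastocysts used the 4 blastocyst arrays and the other contrasts all 8. Stages with 1 array per genotype have no test, and genes at least 2-fold apart are counted. A signal not above the brightest of 15 Bacillus control probe sets was taken as a bound. Named genes were those past the threshold (up to 8 largest per direction), the highest mean signal and the largest blastocyst difference in each class, the 4 largest oocyte and implantation site differences per direction, and a set list of subunits. The members and lists were chosen with earlier results of these data known. Alternatives covered scaling, filter, pseudocount, probe set choice, trend, stage as the only term, the replicate number as a block, and each array left out. Figures were drawn with matplotlib 3.10.9. Same-numbered blastocyst arrays did not deviate together (correlation of replicate 1 minus 2 between KO and WT 0.0184 over 11745 genes).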

Additional observations from a re-analysis of the deposited data

How the results depend on the processing

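Counts and medians were recomputed under the alternatives that apply to each comparison: the replicate block only for KO minus WT in blastocysts, stage as the only term only for stage contrasts, and neither the trend nor left-out arrays for KO minus WT in oocytes and implantation sites, which have no test. Scaling to a common median gave a KO blastocyst median of -0.61, 6 lower and a median of -0.12 for implantation site minus blastocyst, 25 lower and a median of -0.98 for KO oocytes, and 9 higher and a median of 0.53 for KO implantation sites. Without a filter the median of implantation site minus oocyte was 0.94 and 6 were higher in KO oocytes, and with the upper 30% of probe sets 2 were lower in KO implantation sites. Averaging all probe sets of a gene gave a median of 1.12 for blastocyst minus oocyte, 3 higher for implantation site minus blastocyst, 14 higher and a median of 0.28 for implantation site minus oocyte, and 6 higher in KO oocytes. Probe sets without a suffix, which left 38 factors, gave 19 higher and a median of 1.41 for blastocyst minus oocyte, 13 higher and 0.56 for implantation site minus oocyte, 7 lower and -0.10 for KO oocytes, and 1 higher in KO implantation sites. Without the trend 4 were lower for blastocyst minus oocyte and 11 for implantation site minus blastocyst. With each array left out, the KO blastocyst counts were 0 and the median -0.57 to -0.10, and over the 3 stages 0 and -0.35 to -0.11. Blastocyst minus oocyte then gave 26 to 30 higher, 4 to 9 lower and a median of 1.59 to 1.87, implantation site minus blastocyst 2 to 7 higher, 7 to 17 lower and -0.52 to -0.35, and implantation site minus oocyte 17 to 23 higher, 3 to 7 lower and 0.96 to 1.22. With the replicate block the KO blastocyst median was -0.36 with 0 calls, as without it. Signs turned for single genes. Under quantile normalization Eif2b5 was -1.11 in KO oocytes. With all probe sets averaged, blastocyst minus oocyte was -0.39 for Eef2, 1.34 for Eif2s2, -0.67 for Eif3h and 1.14 for Eif5, implantation site minus blastocyst -0.81 for Eif5 and 0.99 for Eif2a, implantation site minus oocyte -0.093 for Eef2, -0.24 for Eif3h and -0.11 for Eif3l, KO oocytes 0.85 for Eif4e2 and 0.23 for Eif4ebp1, and KO implantation sites -1.58 for Eif2b2 and 1.06 for Eif3d. With probe sets without a suffix, Eif2s2 was 4.42 and 1.99 for blastocyst and implantation site minus oocyte, Eif2s3x -1.52 and Eif4a1 -0.82 for implantation site minus blastocyst, Eif4e2 -1.04 and Eif4h -0.50 for implantation site minus oocyte, and 0.11 and 0.35 in KO oocytes, and Eif1ax -1.14, Eif3i -0.026 and Eif4ebp1 -0.44 in KO implantation sites. The cause was not tested.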
